A study of Mus musculus with 72 samples.

Results

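The Dlk1-Meg3 domain of distal chromosome 12 is an imprinted gene cluster, read here in chromatin-associated RNA (ChrRNA-seq), the RNA that stays bound to chromatin and is mostly newly transcribed. Its members were chosen by name and not by any measured value: Dlk1, Meg3, Rian, Mirg and Rtl1, all 5 of which are among the 22556 genes of the count tables. The study asked whether the chromosomal protein SmcHD1 is needed for silencing by Xist RNA, in interspecific XX mouse embryonic stem cells (mESCs) that carry a 129 and a castaneus (Cast) genome and were differentiated into neural precursor cells (NPCs). Xist is driven by a doxycycline-inducible TetOn promoter on the domesticus (Dom, 129) X in iXist-ChrX_Dom and on the Cast X in iXist-ChrX_Cast. SmcHD1 knockout (KO) cells were made with Cas9 guides to Smchd1 exons and are single clones, A3 of iXist-ChrX_Dom and D5 and G6 of iXist-ChrX_Cast. An effect of the KO and of the clone therefore cannot be told apart in any single comparison with wild type (WT). D5 and G6 were both compared with the same WT line.

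The 72 libraries make up 65 replicates, since runs R1 and R2 of a replicate were added together. Doxycycline was given from the start of differentiation in every group except uninduced ES, so the WT controls also express Xist. Days 2, 3, 5 and 7 (called early) hold 8 replicates each of Dom WT, A3, D5 and G6 and 11 of Cast WT. Days 15, 21 and 35 (late) hold 1 replicate per group and day, and iXist-ChrX_Dom has day 52 as well. Uninduced ES libraries are of KO clones (2 of A3, 2 of D5 and 1 of G6), and uninduced WT is not analysed here. The mESCs were grown on fibroblast feeders that were removed by pre-plating before harvest. The labels do not say whether replicates were separate cultures. The paper describes the early days as replicate time course experiments, so samples of different days may come from the same time course. The main fits treat them as independent, and their p-values measure only the spread between these samples.

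Imprinted genes are transcribed mainly from the allele of a given parent. In this domain the coding genes Dlk1 and Rtl1 are known to be expressed from the paternal allele, and the noncoding Meg3, Rian and Mirg from the maternal allele under control of a methylated intergenic region, while in mESC lines this control is known to be easily lost. DLK1 is a noncanonical Notch ligand, RTL1 is a retrotransposon-derived protein needed in the placenta, Meg3 is a long noncoding RNA, Rian hosts small nucleolar RNAs and miRNAs, and Mirg hosts a large miRNA cluster. The labels do not say which parent gave which genome, so alleles are named here by strain and not by parent.

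In mm10, Dlk1 lies on the plus strand at chr12:109452822-109463336, followed by Meg3 at chr12:109540995-109571729, Rian at chr12:109603944-109661711 and Mirg at chr12:109734980-109749457 on the same strand. Rtl1 lies between Meg3 and Rian at chr12:109590168-109595403 on the minus strand, opposite the plus-strand transcript 6430411K18Rik (chr12:109591536-109592851), which is not a member. The promoters of a coding and of 2 noncoding members are shown because the total RNA and the allele share of each are described below. They are RefSeq reference sequences of GRCm38.p6, 250 bases before to 50 after the start, not the alleles of these cells, and they lie at chr12:109452573-109452872 (Dlk1), chr12:109540746-109541045 (Meg3) and chr12:109603695-109603994 (Rian), all on the plus strand. Capitals mark TGCCGC or its reverse complement GCGGCA, the letters bound by ZFP57, a protein that protects methylated imprints.
Dlk1: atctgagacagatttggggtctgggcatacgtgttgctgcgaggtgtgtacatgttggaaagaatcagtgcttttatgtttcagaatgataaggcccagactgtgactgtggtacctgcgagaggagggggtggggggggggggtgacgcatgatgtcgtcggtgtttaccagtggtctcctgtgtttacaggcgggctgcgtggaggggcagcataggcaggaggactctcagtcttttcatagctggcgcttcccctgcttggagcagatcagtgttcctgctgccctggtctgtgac
Meg3: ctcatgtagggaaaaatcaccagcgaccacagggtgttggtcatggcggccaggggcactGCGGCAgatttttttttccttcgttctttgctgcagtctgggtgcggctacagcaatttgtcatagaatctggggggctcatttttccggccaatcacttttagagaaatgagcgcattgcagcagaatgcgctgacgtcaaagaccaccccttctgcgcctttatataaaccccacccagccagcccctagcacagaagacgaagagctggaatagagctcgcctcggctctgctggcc
Rian: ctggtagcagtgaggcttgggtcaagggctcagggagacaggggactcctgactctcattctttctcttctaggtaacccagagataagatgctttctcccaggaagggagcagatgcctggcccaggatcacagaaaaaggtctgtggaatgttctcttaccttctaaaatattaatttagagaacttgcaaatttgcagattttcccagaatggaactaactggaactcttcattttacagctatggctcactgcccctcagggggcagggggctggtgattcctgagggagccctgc
The Meg3 window held these letters at 1 place, the Dlk1, Rian and Mirg windows at none, and 11.6% of 32851 RefSeq promoters of the same length held them on either strand. CG dinucleotides numbered 13 in the Meg3 window, 10 in Mirg, 9 in Dlk1 and 0 in Rian, against a median of 7 over all promoters. These Meg3 counts are of the window shown. A second RefSeq promoter of Meg3, at chr12:109545148-109545447 and not shown, held the letters at 0 places and had 1 CG dinucleotide. A match of letters is a description and not a site.

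The noncoding transcripts are also hosts of miRNAs, and 41 mature miRNAs of 22 hairpins lie within the spans of the members. Mirg holds 10 hairpins, Rian 3 and Meg3 2, while 6 lie on the strand opposite Rtl1 and 1 on its own strand. Of the 40 seeds (bases 2 to 8, in capitals), 1 is shared, by a pair of miRNAs within Mirg. That pair and an example from each of the other transcripts are shown to make clear what the host RNAs described below are processed into (RefSeq, GRCm38.p6).
miR-453 (Mirg): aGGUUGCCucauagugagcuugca
miR-496a-5p (Mirg): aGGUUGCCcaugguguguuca
miR-370-3p (Rian): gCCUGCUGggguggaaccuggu
miR-770-5p (Meg3): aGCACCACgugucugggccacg
miR-127-3p (opposite Rtl1): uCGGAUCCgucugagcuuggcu
The count tables hold fragments of the host transcripts and not of mature miRNAs, so no level is given for these. miR-127 lies antisense to Rtl1 and is known to repress it.

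Depth ranged from 9344054 to 31216487 counted fragments per library. The X-linked genes gave the allele orientation that the labels state, as the median Cast share was 0.996 to 0.999 in late Dom WT and 0.00134 to 0.00409 in late Cast WT. The targeted gene, Smchd1, was not called lower in the KO clones, with early log2 fold changes of 0.00 ± 0.07 (SE) in A3, -0.22 ± 0.08 in D5 and -0.06 ± 0.08 in G6 (adjusted p from 0.0661 to 0.994, edgeR). Its counts span the whole transcript and cannot show a frameshift, so they do not check the label. Summed pluripotency markers fell from 1265 to 1893 RPM in ES to 92.0 to 868 early and 3.68 to 195 late. Summed neural precursor markers were at 184 to 232 RPM in ES, 159 to 313 early and 193 to 1005 late, so the ranges overlapped. The late sum came mainly from Vim and Nes, and from Slc1a3, which had a median of 94.6 RPM late and 132 early. Sox1 was listed at 0 in every library, Olig2 stayed at or below 0.875 RPM and Pax6 had a late median of 0.868 RPM. The summed level of 7 fibroblast markers, led by Col3a1, was 7.64 to 144 RPM early and 243 to 16141 late, although Thy1 was not higher late. Summed endoderm and mesoderm markers were at 38.2 to 63.3 RPM in ES, 29.6 to 454 early and 106 to 371 late. The marker levels move with every late value below and also differ between ES and early days. Their part in the values of any stage was not tested. Of the 12 Dom WT replicates, 7 (replicate 2 of the early days and days 21, 35 and 52) had a Cast share of 0.0607 to 0.178 past 140 Mb of chromosome 6, where the other 5 had 0.489 to 0.516. Calls that rest on them are given with and without these replicates. Late A3 against Dom WT could not be fitted without them, since day 15 alone is left of Dom WT. The test of whether the KO effect differed between the lines was not refitted. All 13 D5 replicates lay at 0.625 to 0.659 there, against 0.448 to 0.516 in the other clones, and the part of this in the D5 values was not tested.

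Rian was among the most abundant chromatin-associated RNAs, Meg3 and Mirg were abundant early and less so late, and the coding members were close to the limit of detection. Levels are given as RPM, the fragments of a gene per 1000000 fragments counted in genes. Meg3, Rian and Mirg together took 0.248 to 1.78% of all fragments of a replicate. Rian ranked between 1 and 4 among all genes in early replicates and between 3 and 31 in late ones. Meg3 ranked between 6 and 91 early and between 25 and 356 late, and Mirg between 6 and 344 early and between 259 and 1006 late. Per kilobase of transcript span, the median over the 65 replicates was 95.2 RPM for Rian, 58.0 for Mirg and 41.8 for Meg3, against 0.245 for Rtl1 and 0.0759 for Dlk1. Dlk1 had 1 to 159 fragments in a replicate and Rtl1 4 to 185, and the Rtl1 fragments numbered 0.146 to 3.07% of those of the transcript opposite it. Counting was by strand, and the part of misassigned strand in the Rtl1 values was not tested.

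In early Dom WT, Meg3 ran from 1416 through a median of 1718 to 2284 RPM, with a mean of 1778 ± 273 (SD, n = 8). Early means of the other groups were 1681 ± 309 in A3, 1437 ± 455 in Cast WT, 1388 ± 332 in D5 and 1457 ± 453 in G6, so all 5 groups overlapped. Early Rian was at 6859 ± 920 RPM in Dom WT, 6632 ± 1797 in A3, 6699 ± 1701 in Cast WT, 8273 ± 2774 in D5 and 6562 ± 2044 in G6, where the highest single replicate was a D5 library of day 3 at 13510. Early Mirg was at 1182 ± 286, 1092 ± 349, 1089 ± 467, 1535 ± 855 and 1078 ± 573 RPM in the same order. The order of the RNAs (Rian, then Meg3, then Mirg) was thus the order of the early means in 4 of the 5 groups, and in D5 the mean of Mirg exceeded that of Meg3 by less than its SD.

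**Figure D1:**
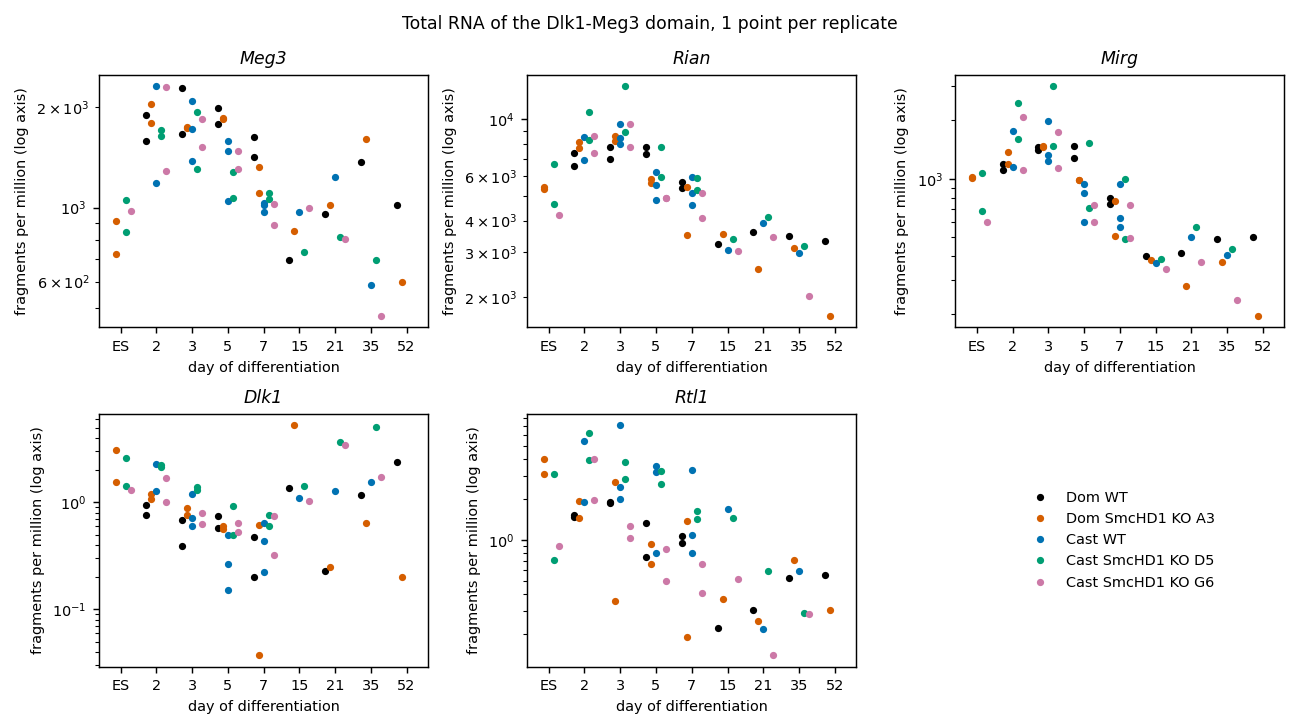
Level of each member (RPM, log axis) by clone and day, with points for replicates. Meg3, Rian and Mirg sit between 196 and 13510 RPM, with every late value below the early values of the same clone for Rian except in A3 and for Mirg except in D5, while Dlk1 and Rtl1 sit between 0.0374 and 7.08 RPM.

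From early days to late days Rian and Mirg fell in all 5 groups, Meg3 fell in Dom WT and D5, and Dlk1 rose in Dom WT, D5 and G6. These fits compare late with early days within each clone (edgeR quasi-likelihood test, Benjamini-Hochberg adjusted over all genes), and between 34.1% (Cast WT) and 43.5% (Dom WT) of all tested genes were called in them. With 42.8% called in A3, 42.6% in D5 and 39.3% in G6, a called member is not unusual among genes. In bulk libraries, fewer cells that express a gene and less RNA per cell cannot be told apart.

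Rian and Mirg were called lower in all 5 groups. Late Rian was at 3236, 3595, 3475 and 3311 RPM in Dom WT (days 15, 21, 35 and 52), and at 3061, 3906 and 2971 RPM in Cast WT (days 15, 21 and 35), each below the early replicates of its line's WT. The log2 fold change of Rian was -0.79 ± 0.12 (SE) in Dom WT, -0.95 ± 0.24 in A3, -0.74 ± 0.22 in Cast WT, -0.88 ± 0.28 in D5 and -0.84 ± 0.28 in G6 (adjusted p from 0.000736 to 0.0337). Mirg fell further, by 1.17 ± 0.20, 1.50 ± 0.27, 1.07 ± 0.34, 1.39 ± 0.46 and 1.38 ± 0.40 on the log2 scale in the same order (adjusted p from 0.00114 to 0.0293). The lowest late values of both RNAs were those of A3 at day 52, with 1690 RPM of Rian and 196 of Mirg. That library also had the highest summed neuron markers (1162 RPM, led by Map2, against 105 to 1056 in the others) and astrocyte markers (27.1 RPM, against 0.877 to 14.9) of all 65 replicates, and their part in its values was not tested.

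Meg3 was called lower in Dom WT (-0.60 ± 0.17, adjusted p = 0.0138) and in D5 (-0.56 ± 0.21, adjusted p = 0.0454), whereas A3 (-0.40 ± 0.21, adjusted p = 0.139), Cast WT (-0.35 ± 0.29, adjusted p = 0.368) and G6 (-0.61 ± 0.29, adjusted p = 0.114) missed the threshold by the same edgeR test. Its late replicates overlapped the early ones in A3, with 851, 1020, 1606 and 599 RPM at days 15, 21, 35 and 52, and in Cast WT, with 969, 1237 and 587 RPM at days 15, 21 and 35. In G6 the replicate of day 15 also lay within the early range. In D5 the late values were 737, 817 and 698 RPM, below all 8 early replicates (1061 to 1938 RPM). In Dom WT they were 694, 956, 1370 and 1018 RPM, below the early minimum of 1416.

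Of the coding members, Dlk1 was called higher late in Dom WT (1.35 ± 0.49, adjusted p = 0.0399), D5 (1.83 ± 0.46, adjusted p = 0.00797) and G6 (1.81 ± 0.42, adjusted p = 0.00753) by edgeR, from low levels. Late Dlk1 was at 1.42, 3.71 and 5.10 RPM in D5 (days 15, 21 and 35), at 1.11, 1.28 and 1.56 RPM in Cast WT, and at 5.26 RPM at day 15 in A3. Early values in all groups were 0.0374 to 2.27 RPM. Rtl1 was called lower late in Dom WT (-1.54 ± 0.35, adjusted p = 0.00532) and D5 (-1.69 ± 0.55, adjusted p = 0.0261), from early means of 1.36 ± 0.420 and 3.21 ± 1.52 RPM to late means of 0.399 ± 0.160 (n = 4) and 0.781 ± 0.611 (n = 3).

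These calls rest on few late libraries. In D5 the 5 called members became 2 without day 15, 1 without day 21 and 0 without day 35, and in G6 the 3 became 2, 0 and 1 without days 15, 21 and 35. In Cast WT the 2 called became 1 without day 15 and 0 without day 35, and in Dom WT the 5 became 3 without day 15 and 4 without day 35 or day 52. In Dom WT without the replicates of low chromosome 6 share, which left day 15 as the only late library (assumed to vary like the early ones), none of the 5 was called, with Rian at -0.78 (adjusted p = 0.142) and Mirg at -1.37 (adjusted p = 0.118). Meg3, Rian, Mirg and Rtl1 kept their direction in all these fits. In A3 the late rise of Dlk1 (1.44 ± 0.80, adjusted p = 0.156) became -0.68 without day 15 (adjusted p = 0.438). With library totals in place of TMM scaling, the median of all genes moved by -0.25 to -0.40 on the log2 scale in these late-against-early fits, and no member changed direction. Dlk1 in Dom WT was then no longer called (1.12, adjusted p = 0.0727, edgeR), while Meg3 in A3 and G6 and Rtl1 in G6 became called. With R1 and R2 as separate replicates, Mirg in D5 was no longer called (-1.22, adjusted p = 0.0521, edgeR), while Meg3 and Rtl1 in G6 became called.

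**Figure D2:**
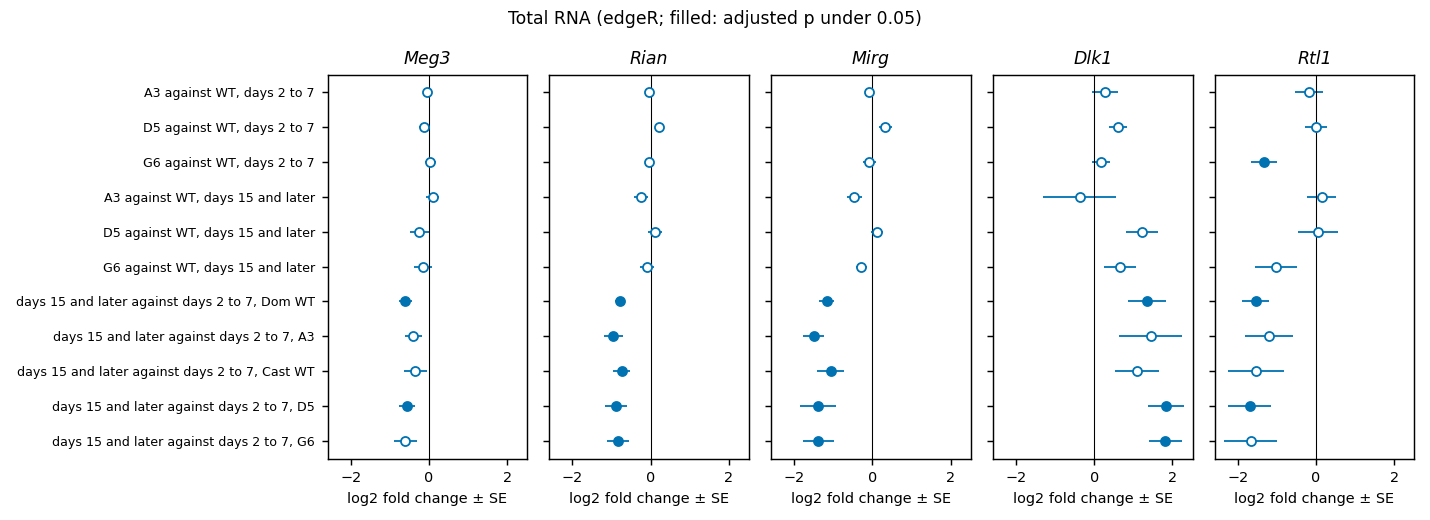
Log2 fold change of each member (edgeR, bars are SE) for KO against WT and for late against early days. The late-against-early values of Rian and Mirg are below 0 in all 5 groups, and of the KO-against-WT values Rtl1 in early G6 (-1.33) was the only one called, while Dlk1 in late D5 (1.21) and Rtl1 in late G6 (-1.02) also lie away from 0.

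Between SmcHD1 KO and WT the noncoding RNAs differed by less than the test could call. At early days (day as a factor plus clone), no member was called in A3 (0.803% of all tested genes called, 0.376% higher and 0.427% lower) or in D5 (11% called, 4.38% higher and 6.66% lower), and 1 of 5 was called in G6 (2.25% called, 1.46% higher and 0.794% lower). The difference in Meg3 was -0.05 ± 0.09 (SE) in A3, -0.13 ± 0.14 in D5 and 0.03 ± 0.14 in G6 on the log2 scale (adjusted p from 0.591 to 0.948, edgeR). Rian differed by -0.04 ± 0.11, 0.20 ± 0.09 and -0.04 ± 0.09, and Mirg by -0.10 ± 0.10, 0.33 ± 0.17 and -0.08 ± 0.17. In D5, Dlk1 was higher by 0.62 ± 0.23 without passing the threshold (adjusted p = 0.0829), and 6430411K18Rik, opposite Rtl1, was called higher (0.42 ± 0.11, adjusted p = 0.0163). Without the Cast WT replicate 1 of day 2, Dlk1 was called in D5 (0.77, adjusted p = 0.0296).

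The call in G6 was Rtl1, lower than in Cast WT by 1.33 ± 0.33 on the log2 scale (adjusted p = 0.0316, edgeR). Early G6 held 0.403 to 3.96 RPM of Rtl1 around a median of 0.949 (10 to 71 fragments), D5 1.43 to 6.23 around 3.05, and Cast WT 0.798 to 7.08 around 2.46, so the groups overlapped. The call was lost in 10 of the 19 fits that left out 1 library (adjusted p from 0.0518 to 0.0819 in those), namely 7 of the 8 G6 replicates (all but day 2 replicate 2) and Cast WT day 3 replicate 1, day 5 replicate 2 and day 7 replicate 1. D5 and G6 together against WT gave -0.51 (adjusted p = 0.700, with 0.381% of genes called). D5 exceeded G6 by 1.33 ± 0.34 (adjusted p = 0.00642), a comparison in which 24.1% of all genes were called. With the replicate number as a block, which pairs the D5 and G6 libraries, Rian (0.23, adjusted p = 0.0267) and Mirg (0.38, adjusted p = 0.0188) were also called higher in D5 than in G6, from 0.24 (adjusted p = 0.0597) and 0.40 (adjusted p = 0.106) without the block. Cast WT exceeded Dom WT in Rtl1 by 1.16 ± 0.34 (adjusted p = 0.0175, with 26.3% of genes called), and by 1.08 with an adjusted p of 0.142 without the Dom WT replicates of low chromosome 6 share. Cast WT is shared by the D5, G6 and line comparisons. No member was called in the test of whether the KO effect differed between the lines, a comparison added after the data were seen (0.288% of genes called).

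Uninduced ES was set against early days of the same clones in another added comparison (21.9% of genes called in A3, and 36% in D5 and G6 together). Meg3 was lower in A3 ES, at 728 and 909 RPM against 1108 to 2048 early (-1.12 ± 0.22, adjusted p = 0.00576). In D5 and G6 the 3 ES replicates held 844, 1055 and 975 RPM, and the difference of -0.48 ± 0.23 missed the threshold (adjusted p = 0.114). Rian at 4200 to 6657 RPM and Mirg at 601 to 1076 RPM in ES lay within or near the early range, and neither was called, nor were Dlk1 at 1.29 to 3.10 RPM and Rtl1 at 0.713 to 3.95 RPM.

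At late days none of the 5 members was called in A3, D5 or G6 (0%, 0% and 0.00668% of genes called by edgeR). The edgeR test called 0 of 15229 genes in A3 and 0 of 14963 in D5, where 1622 and 1214 had an unadjusted p under 0.05 and DESeq2 called 778 and 446. The largest late differences were those of Dlk1 in D5 (1.21 ± 0.41, adjusted p = 0.546) and Rtl1 in G6 (-1.02 ± 0.54, adjusted p = 0.366).

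The part of a transcript's allelic fragments that came from the Cast allele, the Cast share, has to be read against its surroundings. In every replicate, genes that start past 75 Mb of chromosome 12 (365 genes, those within 1 Mb of the domain left out) had a median Cast share of 0.700 to 0.737, while genes before 75 Mb had 0.482 to 0.500 and genes of the other autosomes 0.478 to 0.495. The change lies between 70 and 80 Mb, where the median over genes was 0.660, against 0.491 from 60 to 70 Mb and 0.718 from 80 to 90 Mb. ES, early and late replicates all showed it (0.718 to 0.727, 0.713 to 0.733 and 0.700 to 0.737). What gave the segment this share was not tested. The KO minus WT difference of the segment lay between -0.00781 (late G6) and 0.00263 (early A3) over clones and stages. The early A3 value gave p = 0.0448 (exact two-sided permutation within days), which was above 0.05 in 10 of the 16 fits without 1 replicate and was not kept with genes past 100 Mb (-0.000387, exact permutation p = 0.846). Without the Dom WT replicates of low chromosome 6 share the value was 0.00393 (exact permutation p = 0.0370). Late, the smallest p the design allows is 0.125 for A3 and 0.25 for D5 and G6.

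**Figure D3:**
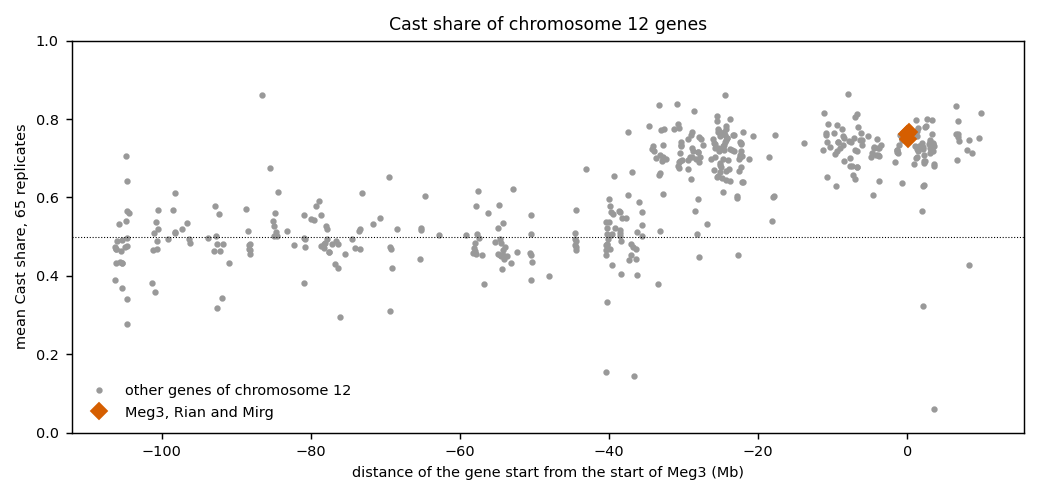
Cast share of genes along chromosome 12 by distance from the Meg3 start in Mb, with the 3 noncoding members marked. Bins of 10 Mb have medians of 0.465 to 0.511 before 70 Mb and of 0.718 to 0.730 past 80 Mb, where the members had mean shares of 0.749 to 0.767.

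In uninduced ES the noncoding members were further towards Cast than the segment. The Meg3 share was 0.833 and 0.836 in A3, 0.848 and 0.857 in D5 and 0.849 in G6. Rian gave 0.820 to 0.842 and Mirg 0.839 to 0.867 over the 5 ES replicates. All 3 RNAs were above the segment in 5 of 5 ES replicates, by a median of 0.128 for Meg3, 0.115 for Rian and 0.141 for Mirg. Among 241 segment genes with enough allelic fragments, 3 had a higher mean ES share than Meg3, 6 than Rian and 2 than Mirg.

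By early differentiation these shares had come down. Early ranges over the 43 replicates were 0.742 to 0.798 for Meg3, 0.712 to 0.780 for Rian and 0.735 to 0.803 for Mirg, all below every ES value of the same RNA. In a comparison added after the data were seen (limma on the share, adjusted over all genes tested), ES exceeded early days by 0.0799 ± 0.00777 (SE) for Meg3, 0.0797 ± 0.00994 for Rian and 0.0771 ± 0.00872 for Mirg in A3 (adjusted p from 6.3e-05 to 0.000447, with 9.02% of genes called). In D5 and G6 together the differences were 0.0896 ± 0.00627, 0.0925 ± 0.00847 and 0.0979 ± 0.00811 (adjusted p from 3.47e-10 to 2.83e-08, with 18.3% of genes called). These shares of genes called include X-linked genes, and among autosomal genes 7.31% were called in A3 and 15.4% in D5 and G6. The segment genes as a whole did not shift, with a median ES minus early difference of -0.000659 and a 5 to 95% range of -0.0866 to 0.0668. For each member, 5 of the 241 fell more from ES to early days. Rises are not in this count, and the lower end of the range shows that rises of that size occurred too. ES libraries are both uninduced and undifferentiated, and these features cannot be told apart here. The comparison was made within KO clones, and none of it was made in WT.

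Late shares lay close to the segment. Over the 17 late replicates Meg3 lay at 0.698 to 0.764, Rian at 0.699 to 0.767 and Mirg at 0.709 to 0.762. They were above the segment in 11, 6 and 12 of 17, with median differences of 0.00693, -0.00298 and 0.0108, where early Meg3 and Mirg had been above it in 43 of 43 and Rian in 41 of 43 (median differences 0.0401, 0.0470 and 0.0252). The highest late values of all 3 RNAs were those of A3 at day 52 (0.764, 0.767 and 0.762). Late minus early, a comparison added after the data were seen, was called for all 3 RNAs in Cast WT (Meg3 -0.0533 ± 0.00719, adjusted p = 0.000333, limma, with 5.89% of genes called). It was called for Meg3 and Mirg in D5 (-0.0403 and -0.0432, 9.91% called) and in G6 (-0.0421 and -0.0359, 7.41% called), for Mirg in Dom WT (-0.0323, 4.62% called) and for none in A3 (4.89% called). Fits without 1 library were not run for it. All 15 differences were below 0, and the Dom WT call was lost without the replicates of low chromosome 6 share (-0.0267, adjusted p = 0.577, with day 15 as the only late library).

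**Figure D4:**
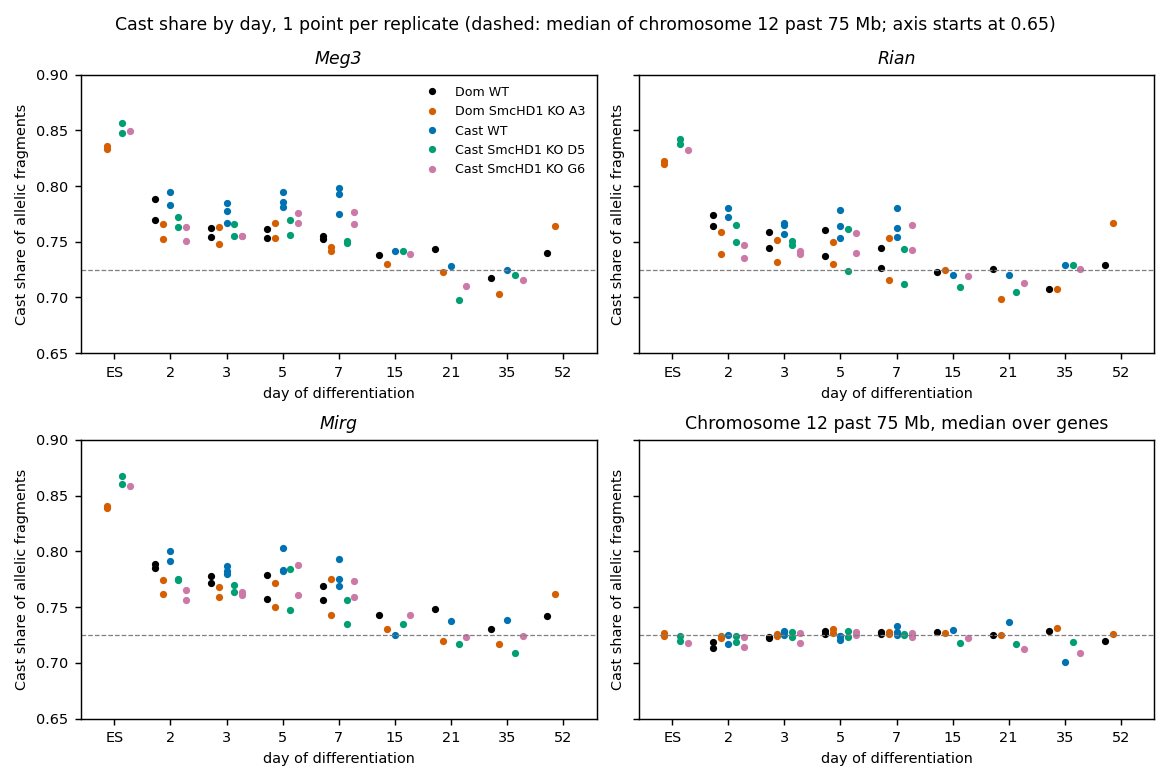
Cast share of Meg3, Rian and Mirg by clone and day, with points for replicates and the median of chromosome 12 past 75 Mb for comparison. ES replicates sit at 0.820 to 0.867, early replicates at 0.712 to 0.803 and late replicates around the segment.

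Split by allele, the Dom allele rose by a larger factor from ES to day 2 than the Cast allele, from a lower ES level. In A3, Meg3 fragments of the Dom allele went from a mean of 45.5 RPM in ES (n = 2) to 160 at day 2 (n = 2), 3.52 times as much, while those of the Cast allele went from 230 to 507 RPM, 2.21 times as much. In D5 the Dom allele rose 2.83 times and the Cast allele 1.62 times, and in G6 3.01 and 1.65 times. For Mirg the Dom allele rose 1.76, 3.71 and 4.44 times in A3, D5 and G6 and the Cast allele 1.11, 2.03 and 2.34 times. From early to late days both alleles fell, the Cast allele of Rian in Cast WT to 0.466 of its early mean and the Dom allele to 0.588.

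**Figure D5:**
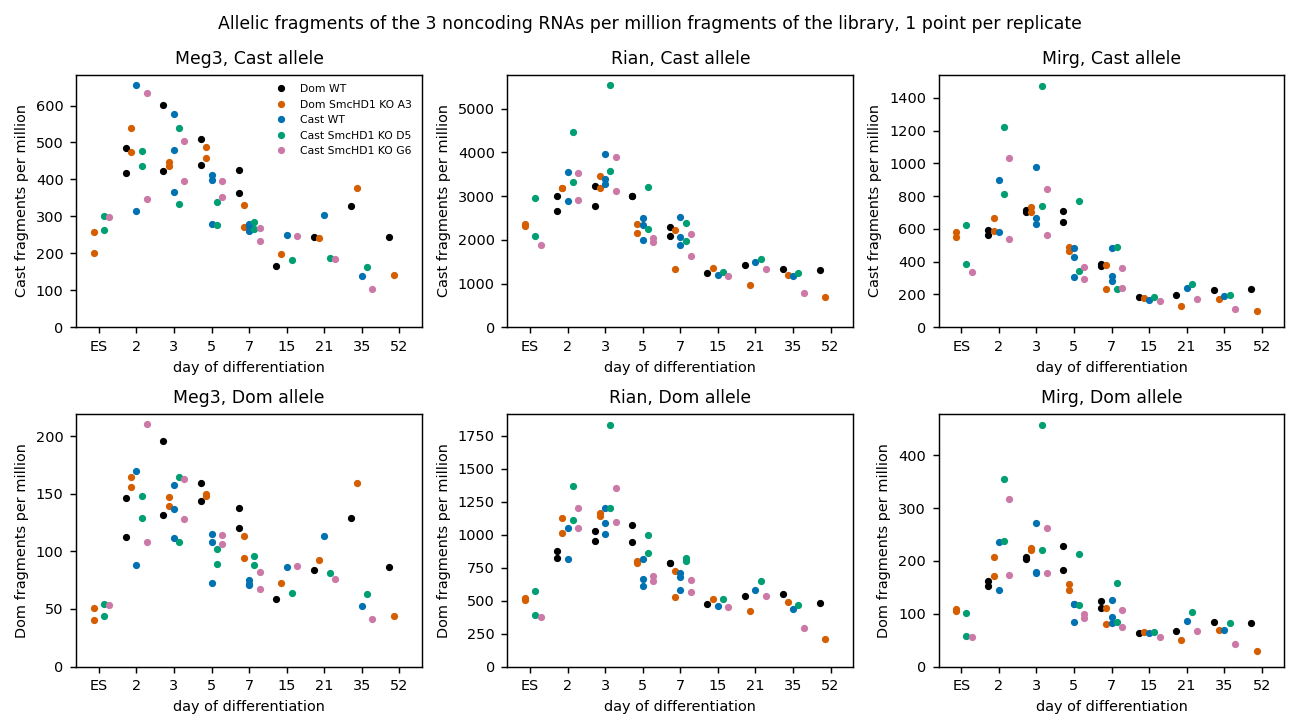
Allelic RPM of Meg3, Rian and Mirg by clone and day, in a panel for each allele, with points for replicates. From ES to day 2 the Dom allele of Meg3 rises 2.83 to 3.52 times and the Cast allele 1.62 to 2.21 times.

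The KO clones of iXist-ChrX_Cast had lower early shares than their WT. In D5 all 3 RNAs were called lower (3.37% of genes called, 0.747% lower): Meg3 by -0.0251 ± 0.00426 (SE, adjusted p = 0.000166, limma), Rian by -0.0230 ± 0.00558 (adjusted p = 0.0130) and Mirg by -0.0232 ± 0.00514 (adjusted p = 0.00518). In G6, where 0.58% of genes were called and 0.413% lower, Meg3 was called (-0.0214 ± 0.00426, adjusted p = 0.00956), and Rian (-0.0212 ± 0.00558, adjusted p = 0.0734) and Mirg (-0.0205 ± 0.00514, adjusted p = 0.0585) missed the threshold. The early Meg3 share was 0.767 to 0.798 around a median of 0.785 in Cast WT, 0.749 to 0.772 around 0.760 in D5 and 0.750 to 0.776 around 0.765 in G6, so that the groups overlapped at their edges. All 3 calls of D5 held in every fit that left out 1 library, and 2 such fits in G6 called more than Meg3 (without day 5 replicate 2, and without day 7 replicate 2 of G6). Between D5 and G6 none of the 3 was called (5.28% of genes called; Meg3 -0.00364, 95% interval -0.0130 to 0.00571, adjusted p = 0.793). The 11 tested genes within 1 Mb of the domain gave no call in either clone. Both comparisons share Cast WT.

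In A3 no RNA was called (0.537% of genes called). The Meg3 difference was -0.00755 with a 95% interval of -0.0167 to 0.00162 (adjusted p = 0.544), and -0.00963 without the Dom WT replicates of low chromosome 6 share (adjusted p = 0.605). The early Meg3 share was 0.752 to 0.788 in Dom WT and 0.742 to 0.767 in A3. The test of whether the KO effect differed between the lines, added after the data were seen, called none of the 3 (Meg3 -0.0157 ± 0.00580, adjusted p = 0.221, with 1.41% of genes called), so a difference between the lines was not shown. The lines themselves differed in WT, in another added comparison with 22.1% of genes called (19.4% of autosomal genes). Cast WT exceeded Dom WT by 0.0238 ± 0.00456 for Meg3 (adjusted p = 0.000312), 0.0166 ± 0.00470 for Rian (adjusted p = 0.0113) and 0.0138 ± 0.00430 for Mirg (adjusted p = 0.0223). Without the Dom WT replicates of low chromosome 6 share the differences were 0.0217, 0.0249 and 0.0178 (adjusted p = 0.0178, 0.00171 and 0.0351). Of the genes before the domain, Evl (0.0589), Wars (0.0561), Wdr25 (0.0520) and Yy1 (0.0390) were called with larger values, while after the domain Ppp2r5c (-0.00394, adjusted p = 0.706), and Dync1h1 (-0.00379), Hsp90aa1 (-0.00368) and Wdr20 (0.00389), named after their values were seen, were not called. At late days no RNA was called in any clone (0% of genes called in A3 and G6 and 0.865% in D5), with 948 genes of A3 and 1139 of G6 at an unadjusted p under 0.05. The late Meg3 difference was -0.0119 in D5 with a 95% interval of -0.0336 to 0.00972, which holds the early value.

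Dlk1 and Rtl1 had at least 10 allelic fragments in 30 and 23 of the 65 replicates, too few to be tested, and are given as pooled shares. Over all replicates 584 of 768 allelic Dlk1 fragments came from Cast, a share of 0.760 (95% Wilson interval 0.729 to 0.789, counting error only), and 451 of 568 Rtl1 fragments, a share of 0.794 (0.759 to 0.825). The fragments counted for the coding members thus leaned to the same allele as the noncoding members and the segment. All Rtl1 fragments of a replicate numbered 0.146 to 3.07% of those of the transcript opposite it. The part of misassigned strand in the Rtl1 share was not tested. By stage, Dlk1 gave 0.719 (0.592 to 0.819) in ES, 0.745 (0.700 to 0.785) early and 0.787 (0.739 to 0.829) late, where the segment lay at 0.700 to 0.737. Rtl1 gave 0.882 (0.734 to 0.953) in ES from 34 fragments, 0.798 (0.760 to 0.832) early and 0.698 (0.565 to 0.805) late from 53 fragments. Beside Rtl1, the transcript opposite it cannot be read by allele, with 40 allelic fragments in all.

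The neighbours give the background of the domain. Begain, a synaptic protein gene upstream, had a mean Cast share of 0.763, Wdr25 0.749 and Wars, a tRNA synthetase gene, 0.747, and downstream Ppp2r5c, a phosphatase subunit gene, had 0.684. Dio3, the imprinted deiodinase gene at the end of the domain, had a mean of 0.710 RPM and its opposite-strand RNA Dio3os 0.375 RPM, too little for a share. Other imprinted RNAs lay elsewhere, on chromosomes without the segment's imbalance. Their median shares in ES, early and late replicates were 0.453, 0.465 and 0.469 for Kcnq1ot1, 0.528, 0.518 and 0.487 for Airn and 0.476, 0.451 and 0.560 for H19. Nespas (0.491, 0.483 and 0.478) and Mest (0.487, 0.491 and 0.452) stayed near equal shares in every stage, Peg10 lay at 0.562, 0.578 and 0.534, and Peg3 went from 0.582 in ES to 0.507 early and 0.489 late and Zrsr1 from 0.552 to 0.457 and 0.439. Nnat had enough allelic fragments in 9 replicates and Peg13 in 0, and Snhg14 is not among the genes of the tables. Snrpn had the lowest median Cast shares of the list, 0.0423 in ES, 0.0845 early (0 to 0.249) and 0.188 late (0.00935 to 0.542), so its late replicates spread up to an equal share.

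The genes of 2 lists bear on the domain, and both lists were chosen with earlier results known. Of 18 Notch ligands, receptors and targets, 14 to 18 were tested per comparison and 0 were called in any KO against WT comparison, where Rbpj, the DNA-binding partner of Notch, differed by a fold of 0.765 in A3 (adjusted p = 0.237), 0.856 in D5 (adjusted p = 0.181) and 0.850 in G6 (adjusted p = 0.278) at early days, and Notch2 by 1.05, 1.13 and 1.10. From early to late, 2 to 6 of the 15 or 16 tested were higher and 2 or 3 lower per group, where 18.8 to 22.3% of all genes were called higher and 15.3 to 22.3% lower, with the ligand Jag1 higher (log2 fold change 2.09 to 2.92) and the ligand Jag2 lower (-1.43 to -2.23) in all 5, both named after their values were seen. Of 18 genes that keep or erase imprints, all tested, none was called in A3. In early D5, where 2 of 18 were called and 11% of all genes were, Dppa3, which protects maternal methylation after fertilization, was higher (0.90 ± 0.17, adjusted p = 0.000982), as was Trim28, the corepressor of ZFP57 (0.31 ± 0.10, adjusted p = 0.0483). In early G6, where 1 of 18 was called and 2.25% of all genes were, Dnmt3l, a cofactor of de novo methylation, was lower (-0.70 ± 0.17, adjusted p = 0.0251). Late, 0 of 18 were called in any clone. The list medians were -0.07, 0.02 and -0.06 in early A3, D5 and G6, against 0.01, 0.01 and -0.02 over all genes tested.

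Over the 60 differentiation replicates the levels of the 3 noncoding RNAs and of Rtl1 moved together, and that of Dlk1 did not move with them. Pearson's r of log2(RPM + 1) was 0.975 between Rian and Mirg, 0.748 between Meg3 and Rian, 0.713 between Meg3 and Mirg and -0.24 between Meg3 and Dlk1. Rtl1 gave 0.661 with Rian, 0.633 with Mirg, 0.538 with Meg3 and -0.0013 with Dlk1. These are descriptions over replicates that share clone and day. Among 13644 genes outside the domain, those most like Meg3 were Ctbp2 (r = 0.902), LOC100503676 (0.893), Mapkapk3 (0.893), Fntb (0.891) and Rapgef1 (0.891). Those most like Dlk1 were Ntrk2 (0.794), Crabp1 (0.760), Cpxm1 (0.753), Sfrp2 (0.753) and Itm2a (0.741). The highest r with a gene outside the domain was 0.938 for Rian, 0.944 for Mirg and 0.804 for Rtl1. Moving together was thus not particular to the members.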

How the data were processed

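Chromatin-associated RNA was sequenced from 72 libraries of interspecific mESCs and their NPC derivatives. Per the authors' methods, rRNA reads were removed with Bowtie2 2.3.2, the rest were aligned with STAR 2.4.2a to mm10 masked at strain SNPs, split by allele with SNPsplit, and counted by featureCounts with strand over whole transcripts, introns included. The deposited values are counts of fragments per gene, in total and by allele, with no normalization, and they are reported here without scaling by length unless stated. The 2 deposited tables of X-linked ratios were not used.

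Runs R1 and R2 of a replicate were summed, and no 2 libraries held identical counts. Members were chosen by name, and the members and gene lists were chosen with earlier results of these data known. The genes named are the 5 members, 6 neighbours fixed by name and those within 1 Mb past the threshold, list genes past the threshold between KO and WT (at most 5) or else the 2 most abundant of their list, and for Meg3 and Dlk1 the 5 genes with the highest Pearson's r. Total RNA was tested with edgeR 4.0.16 (quasi-likelihood, TMM, filterByExpr, R 4.3.3) and Cast shares with limma 3.58.1 on genes with at least 10 allelic fragments in over 80% of the replicates of a fit. Day was a factor in the fits between clones and between lines. The late-against-early and ES-against-early fits had no day term, so differences between days stayed in their spread. Adjustment of p-values was over all genes at a threshold of 0.05. The share of chromosome 12 was compared by exact two-sided permutation within days. DESeq2 1.42.0, library totals, no filter, R1 and R2 as separate replicates, a fit per line, D5 and G6 pooled, a replicate block, a logit scale, at least 20 fragments, centring and leave-one-out fits were alternatives. The scripts were tested on simulated data. Replicate numbers paired D5 with G6 (correlation of replicate differences 0.394 to 0.809 over 4 days) but not A3 with Dom WT. With Cast WT the correlation was 0.683 for D5 and 0.794 for G6 at day 2, and -0.293 to 0.158 at days 3, 5 and 7. Wilson intervals cover counting error only. Promoters and miRNAs are RefSeq sequences of GRCm38.p6, matched by name, and figures were drawn with matplotlib 3.10.9.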

Additional observations from a re-analysis of the deposited data

Results flagged for a closer look

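Rtl1 differed between the SmcHD1 KO clones D5 and G6 of the same line at early days, by 1.33 ± 0.34 on the log2 scale (adjusted p = 0.00642, edgeR quasi-likelihood test), so its difference from the shared Cast WT replicates was not the same in both clones. The 8 early replicates of D5 held 1.43 to 6.23 RPM and those of G6 0.403 to 3.96. Both ranges rest on 10 to 185 fragments per replicate and overlap.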

How the results depend on the processing

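For single members, 472 values under the alternatives kept direction and side of the threshold, 17 came to pass it, 11 no longer did and 20 changed sign, none of which was a call, and the cause was not tested. The late-against-early calls of Rian and Mirg kept their direction in every fit, as did the early Meg3 share in D5 and G6.

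Members called in total RNA numbered 0 instead of 1 between the WT lines and 0 instead of 5 at late days in Dom WT without the low chromosome 6 replicates. D5 against G6 gave 2 with R1 and R2 separate or with library totals and 3 with the replicate block, instead of 1. Early D5 gave 1 with DESeq2 (Dlk1 0.61, adjusted p = 0.0469) and 2 with the replicate block, instead of 0. Those of the block were Mirg (0.43, adjusted p = 0.0182) and Rian (0.24, adjusted p = 0.0376), although numbers pair D5 with WT at day 2 only. Early G6 against WT gave 0 with the clones pooled, instead of 1. Late against early days of G6 gave 5 with R1 and R2 separate or with library totals, instead of 3. Members called in late Dom WT shares numbered 2 on the logit scale and 0 without the low chromosome 6 replicates, instead of 1. The Mirg share between the WT lines missed the threshold when centred (0.0124, adjusted p = 0.0898).

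Signs changed with library totals for Meg3 in late A3 (-0.0335), Rian between the WT lines (-0.0508), Rtl1 in early D5 (0.0463) and Meg3 in early G6 (-0.0131). Without the low chromosome 6 replicates they changed for Dlk1 (-0.0183) and Meg3 (0.0717) in early A3. Pooling D5 and G6 changed Mirg (-0.0707) and Rtl1 (-0.423) in late D5, Rian in late G6 (0.00888), and Meg3 (-0.0454), Mirg (0.139) and Rian (0.0883) in early G6. Rtl1 in early D5 was 0.0519 with R1 and R2 separate and 0.00388 with no filter. The replicate block changed Dlk1 (-0.0361), Meg3 (-0.0414), Mirg (0.0446) and Rian (0.00693) in early G6. Centring changed the late G6 shares of Mirg (0.00407) and Rian (0.00388).

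The segment difference of early A3 was 0.0013 from sums, -0.00039 past 100 Mb, 0.0019 with no genes left out and 0.0022 at 20 fragments. That of early D5 was -0.0036 from sums (exact permutation p = 0.048), 0.0015 past 100 Mb and 9.23e-05 with no genes left out.

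Without 1 replicate, members called in total RNA ranged from 1 to 2 between the WT lines and in D5 against G6, and from 0 to 1 in early D5 and G6 against WT. For late against early days they ranged from 2 to 3 in A3, 0 to 2 in Cast WT, D5 and G6 and 3 to 5 in Dom WT. Member shares called ranged from 1 to 3 in early G6, stayed at 3 in early D5 and at 0 in the other KO comparisons. The segment difference ranged from 0.00195 to 0.0033 in early A3, 0.000724 to 0.00304 in late A3, -0.00147 to 0.000617 in early D5, -0.0161 to 0.00309 in late D5, -0.00306 to -0.00066 in early G6 and -0.0158 to 0.000341 in late G6.

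Single members that were not called changed sign without 1 replicate in these ranges of log2 fold change. In late A3 they were -1.33 to 0.587 for Dlk1 and -0.0380 to 0.388 for Rtl1, and in early A3 -0.0883 to 0.00614 for Meg3, -0.0903 to 0.0203 for Rian and -0.448 to 0.00439 for Rtl1. Between the WT lines Mirg ranged from -0.123 to 0.0197. Rtl1 ranged from -0.388 to 0.494 in late D5 and from -0.133 to 0.196 in early D5. In G6 the ranges were -0.324 to 0.0891 for late Meg3, and -0.0645 to 0.113 for Meg3, -0.146 to 0.00403 for Mirg and -0.0621 to 0.00595 for Rian early. Dlk1 at late against early days of A3 ranged from -0.680 to 1.80. Of the shares, late A3 ranged from -0.0146 to 0.00067 for Meg3 and from -0.00858 to 0.0130 for Rian, D5 against G6 from -0.00542 to 0.000618 for Mirg and from -0.00477 to 0.00294 for Rian, and late G6 from -0.0149 to 0.00308 for Mirg.

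All genes called in total RNA ranged over the alternatives from 9 (without Dom WT day 5 replicate 2) to 692 in early A3 (124 as reported), 59 to 2755 in early D5 (1712), 59 to 1267 in early G6 (349), 0 to 778 in late A3 (0), 0 to 596 in late D5 (0) and 0 to 2427 in late G6 (1). Replicate numbers of Dom WT and A3 were negatively correlated on all 4 early days (-0.446 to -0.727), and a crossed pairing, added after the data were seen, called 540 genes in total RNA and 255 in shares against 130 and 231 with the replicate block, with no member called.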
